A study of Homo sapiens with 9 samples.

Results

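The genes described here are 10 human genes that move copper into, through and out of cells. They were taken by symbol from the deposited table of 62703 gene lines, where each was found on 1 line. They are the membrane transporter genes SLC31A1, SLC31A2, ATP7A and ATP7B, the chaperone genes ATOX1, CCS, COX17, SCO1 and SCO2, and the regulator gene COMMD1. Their RNA was measured by sequencing in 3 groups of 3 libraries. All are from cells that the labels call HepG2, the name of a liver carcinoma cell line. Every group was exposed for 24 h to the fatty acid palmitic acid at 750 µM. One group had palmitic acid alone, another then had the turmeric polyphenol curcumin at 20 µM for 12 h, and the last had curcumin at 20 µM together with CuCl2 at 5 µM for 12 h. Cells without palmitic acid, with CuCl2 but no curcumin, or kept for the further 12 h without either are not described in the labels. An effect of copper by itself therefore cannot be told apart from one that needs curcumin.

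Copper is a cofactor that cells need in traces and that is toxic when free, so it is passed from protein to protein. The importer encoded by SLC31A1 brings copper in at the plasma membrane, and small chaperones then carry it to 3 places. ATOX1 delivers it to the pumps encoded by ATP7A and ATP7B in the secretory pathway, CCS loads the cytosolic superoxide dismutase SOD1, and COX17 hands it to SCO1 and SCO2 for cytochrome c oxidase in mitochondria. ATP7B is the pump that hepatocytes use to send copper into bile and is mutated in Wilson disease, while ATP7A serves most other tissues and is mutated in Menkes disease. Much of the known response of these proteins to copper is a change of their place or stability, which RNA levels do not record. Metallothionein genes, in contrast, are switched on by metals through the transcription factor MTF1, which binds the metal response element.

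Promoter sequences of 4 genes are shown because the results below set the members beside a metallothionein gene. For curcumin with CuCl2 against palmitic acid alone, that gene passed the test and no member did. Each sequence is the 250 bases before the start of the gene in RefSeq (GRCh38.p14), 5′ to 3′ on the gene's strand. Capitals mark matches to the metal response element, searched as TGCACNC and TGCGCNC on both strands, where matches on opposite strands may overlap.
SLC31A1, chr9:113221294-113221543, plus strand: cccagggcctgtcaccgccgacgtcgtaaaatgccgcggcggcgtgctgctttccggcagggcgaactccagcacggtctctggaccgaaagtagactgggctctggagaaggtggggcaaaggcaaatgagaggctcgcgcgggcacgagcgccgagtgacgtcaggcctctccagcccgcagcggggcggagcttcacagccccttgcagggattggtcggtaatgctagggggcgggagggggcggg
ATP7A, chrX:77910443-77910692, plus strand: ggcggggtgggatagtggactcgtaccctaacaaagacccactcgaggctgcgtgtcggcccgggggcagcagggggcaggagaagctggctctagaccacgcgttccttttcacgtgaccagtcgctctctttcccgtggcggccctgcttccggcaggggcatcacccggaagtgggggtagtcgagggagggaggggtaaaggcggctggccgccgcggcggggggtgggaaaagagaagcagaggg
ATOX1, chr5:151758632-151758881, minus strand: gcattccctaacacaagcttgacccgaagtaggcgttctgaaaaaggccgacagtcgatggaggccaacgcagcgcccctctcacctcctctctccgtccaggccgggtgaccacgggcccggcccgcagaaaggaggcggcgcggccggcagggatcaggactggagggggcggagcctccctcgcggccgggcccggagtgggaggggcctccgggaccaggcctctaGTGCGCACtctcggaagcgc
MT1X, chr16:56682220-56682469, plus strand: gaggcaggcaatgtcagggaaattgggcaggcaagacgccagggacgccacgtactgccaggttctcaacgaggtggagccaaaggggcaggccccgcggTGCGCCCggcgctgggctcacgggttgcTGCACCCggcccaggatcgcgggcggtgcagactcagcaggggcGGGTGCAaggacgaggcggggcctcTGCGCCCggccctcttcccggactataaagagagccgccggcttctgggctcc
MT1X, which encodes a metallothionein, held 4 matches, a number reached by 0.37% of the 35116 RefSeq promoters of this length. SLC31A1 and ATP7A held none, and ATOX1 held 2 that overlap in 1 stretch. RefSeq promoters were found for 8 of the 10 members, 13 in all, some of which overlap, and SLC31A2 and SCO2 had no entry. Of those 13, 7 held at least 1 match, against 24.8% of all promoters. They were 1 of 3 promoters of ATP7B, that of ATOX1, that of CCS, both of COX17 and 2 of 3 of COMMD1. The 24.8% covers all promoters without matching for GC content, and promoters of the same gene are not independent of each other. A match is a string of letters and not a measured binding site.

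The values are TPM, a unit that divides reads by gene length and sets each library to the same total, so levels of different genes can be set side by side. The unit carries no sequencing depth, so the depth behind each value is unknown. Hepatocyte markers were almost absent: all 19 had a mean under 1 TPM, 6 were listed at 0 in every library, ALB and TTR among them, and their sum was 1.33 to 3.58 TPM per library. The label HepG2 is used here as the submitters' name for the cells. These markers do not bear out a liver origin, and the identity of the cells was not tested. Of other markers, 7 of 9 fibroblast, 6 of 9 leukocyte and all 7 endothelial genes were under 1 TPM. Of the 6 epithelial markers 3 were under 1 TPM, EPCAM, KRT19 and CDH1, and the list, in effect KRT7, KRT8 and KRT18, summed to 3314 to 3812 TPM with palmitic acid alone, 2505 to 2865 TPM after curcumin and 2637 to 2715 TPM after curcumin and CuCl2, and the part of this shift in the values below was also not tested. Genes of mitochondrial DNA held 10.1% to 13% of the TPM of a library, and their share was 13%, 12.5% and 10.1% in replicates 1 to 3 of palmitic acid alone. Exonic bases were counted over all annotated exons of a gene, so the count can exceed the length of its transcripts. Across the 5909 genes with over 5000 exonic bases, the median log2(TPM + 1) lay 0.19 above the gene's own mean in replicate 1 of palmitic acid alone and stood at -0.20 in replicate 3. Replicates 1 and 3 of that group thus differed from each other in both measures, and the part of this in the members' values was not tested.

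The mitochondrial and cytosolic chaperones COX17 and ATOX1 were the most abundant members. COX17, the soluble carrier of the mitochondrial intermembrane space, had a mean of 180 ± 19.2 TPM (SD over the 9 libraries), above 93.9% of the 13443 genes kept for testing. ATOX1 had 139 ± 23.4 TPM, and COX17 was 1.12 to 1.44 times as high as ATOX1 within each of the 9 libraries. A middle tier of 5 genes followed, with COMMD1 at 38.0 TPM, SLC31A1 at 31.3, CCS at 27.8, SCO2 at 27.3 and SCO1 at 26.6. COMMD1 was above CCS, SCO2 and SCO1 in all 9 libraries and above SLC31A1 in 8. The ranges of neighbours in this tier overlapped, and SCO1 was above SCO2 in 3 of 9 libraries. The pumps and the second SLC31 gene were the lowest, with ATP7A at 4.52 TPM, SLC31A2 at 2.37 TPM and ATP7B at 0.950 TPM.

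Each pair of related genes was unequal except SCO1 and SCO2. SLC31A1 was 9.17 to 16.4 times as high as SLC31A2, which encodes a related protein of endosomes and lysosomes, within the same library. ATP7A was 3.99 to 5.82 times as high as ATP7B. The order held in all 9 libraries for both pairs. In these cells, which lacked hepatocyte transcripts, the pump of hepatocytes was thus the less abundant of the pair, and it was under the minimum mean of 1 TPM used for testing. The ranges of ATP7A and SLC31A2 overlapped, from 2.92 TPM at the lowest of the former to 3.34 TPM at the highest of the latter, whereas the highest library of ATP7B (1.20 TPM) was below the lowest of SLC31A2 (1.41 TPM).

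**Figure D1:**
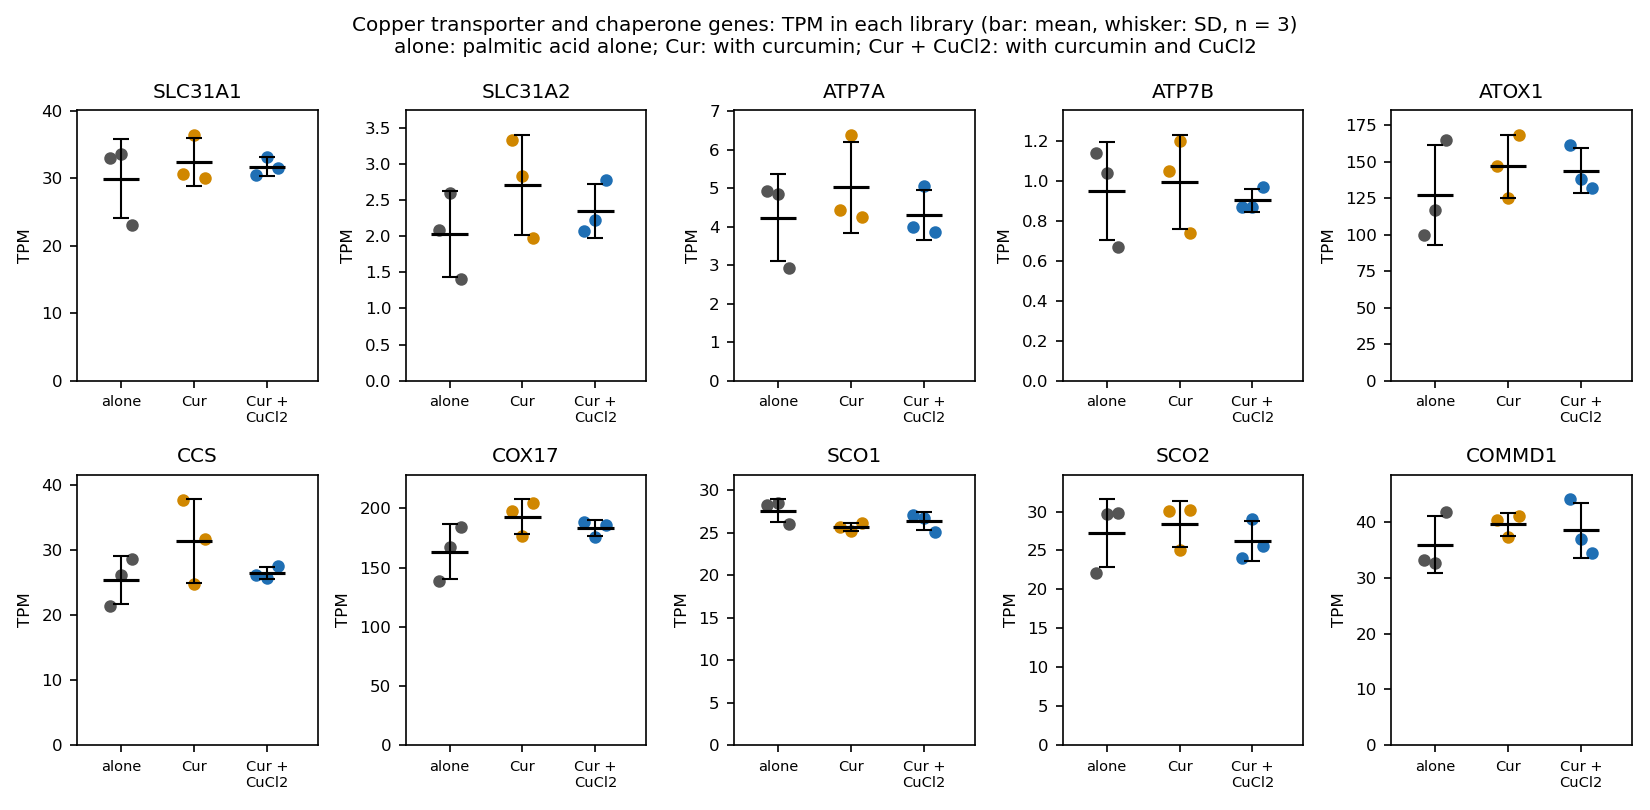
TPM of each of the 10 genes (vertical axis, from 0) in the 3 libraries of each group (points, in replicate order), with the group mean (bar) and SD (whisker). Groups overlap in every panel, and the libraries with palmitic acid alone have the largest SD for all genes but SLC31A2, ATP7A and CCS.

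The copper importer gene SLC31A1 occupies bases 113221562 to 113264492 of chromosome 9, plus strand, in GENCODE 29 (GRCh38). It stood at 33.0, 33.6 and 23.2 TPM with palmitic acid alone, 30.6, 36.4 and 30.1 TPM after curcumin, and 30.4, 33.2 and 31.6 TPM after curcumin and CuCl2. The low value was replicate 3 of palmitic acid alone, and the other 8 libraries lay between 30.1 and 36.4 TPM. Against palmitic acid alone, the log2 fold change on the log2(TPM + 1) scale was 0.12 after curcumin (SE 0.14, 95% confidence interval -0.19 to 0.44, limma adjusted p = 0.798) and 0.10 after curcumin with CuCl2 (SE 0.14, -0.22 to 0.42). Without replicate 3 of palmitic acid alone these became -0.04 and -0.07, so the sign of both rested on that library. Adding CuCl2 to curcumin gave -0.02 (-0.34 to 0.29), an interval of 0.790 to 1.23 times. SLC31A2, its neighbour on chromosome 9 at 113150942 to 113164137, stood at 2.09, 2.60 and 1.41 TPM with palmitic acid alone, at 3.34, 2.83 and 1.97 TPM after curcumin and at 2.07, 2.22 and 2.78 TPM after curcumin and CuCl2. Its estimate after curcumin, 0.29 (SE 0.20, -0.16 to 0.75), was the largest of the members, with an upper bound of 1.68 times on the TPM + 1 scale. With a pseudocount of 0.1 that estimate was 0.41 (-0.23 to 1.04) and its upper bound 2.06 times.

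The exporter genes showed the same low library. ATP7A, on the X chromosome at 77910656 to 78050395, had 4.92, 4.84 and 2.92 TPM with palmitic acid alone, 4.43, 6.38 and 4.25 TPM after curcumin, and 3.99, 5.06 and 3.87 TPM after curcumin and CuCl2. Replicate 3 of palmitic acid alone was the lowest of the 9 and replicate 2 of curcumin the highest. The log2 fold change was 0.21 after curcumin (-0.25 to 0.67), which became 0.017 when replicate 3 of palmitic acid alone was left out and 0.056 when replicate 2 of curcumin was. After curcumin with CuCl2 it was 0.04 (-0.42 to 0.50), which became -0.16 when replicate 3 of palmitic acid alone was left out and -0.06 when replicate 2 of curcumin with CuCl2 was. ATP7B, on chromosome 13 at 51930436 to 52012125 on the minus strand, had 1.14, 1.04 and 0.67 TPM, then 1.05, 1.20 and 0.74 TPM, and then 0.87, 0.87 and 0.97 TPM in the same order of groups. Two-sided exact permutation tests on ATP7B gave p = 0.7 for curcumin and p = 0.9 for curcumin with CuCl2 against palmitic acid alone, and p = 0.6 for the latter against curcumin, where 3 libraries against 3 cannot go below 0.1. In a fit with no filter its interval was -0.32 to 0.40 for curcumin against palmitic acid alone.

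The cytosolic chaperones varied the other way among the libraries with palmitic acid alone. ATOX1, on chromosome 5 at 151742316 to 151772532 on the minus strand, had 99.7, 117 and 165 TPM with palmitic acid alone, 147, 125 and 168 TPM after curcumin, and 161, 138 and 132 TPM after curcumin and CuCl2. The first group held the lowest libraries and reached almost to the highest. Its log2 fold change was 0.23 after curcumin (SE 0.18, -0.17 to 0.63) and 0.20 after curcumin with CuCl2 (-0.20 to 0.60). CCS, on chromosome 11 at 66592821 to 66606019, had 21.5, 26.2 and 28.7 TPM, then 37.7, 24.8 and 31.7 TPM, and then 26.2, 25.8 and 27.5 TPM. With curcumin, 2 of 3 libraries exceeded all others, and the third lay inside the range of palmitic acid alone. The estimates for CCS were 0.28 after curcumin (SE 0.15, -0.06 to 0.62, limma adjusted p = 0.466) and -0.22 when CuCl2 was added to curcumin (-0.56 to 0.12), the farthest from 0 of the members in that comparison.

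Of the mitochondrial chaperones, COX17 came nearest to a difference. It lies on chromosome 3 at 119654513 to 119677454 on the minus strand and had 139, 168 and 184 TPM with palmitic acid alone, 198, 176 and 205 TPM after curcumin, and 188, 176 and 186 TPM after curcumin and CuCl2. Replicate 3 of palmitic acid alone lay within both other groups, and replicates 1 and 2 lay below all libraries of them. The mean after curcumin was 193 ± 14.7 against 163.5 ± 23.2 TPM (SD, n = 3 each), 1.18 times, with a log2 fold change of 0.24 (SE 0.10, 0.01 to 0.48). In limma the adjusted p = 0.329 over all genes tested, from 0.041 unadjusted, and the exact permutation test on COX17 alone gave p = 0.2. Leaving out replicate 1 of palmitic acid alone took the estimate to 0.13 (limma adjusted p = 0.612). After curcumin with CuCl2 the estimate was 0.17 (-0.06 to 0.41).

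SCO1 and SCO2, which insert copper into the COX2 subunit of cytochrome c oxidase, were close to level. SCO1, on chromosome 17 at 10672474 to 10698375, ranged only from 25.1 to 28.5 TPM over the 9 libraries, 1.13 times, the narrowest of the members. Its log2 fold change was -0.10 after curcumin (SE 0.08, -0.27 to 0.07), an interval of 0.829 to 1.05 times on the TPM + 1 scale. It was 0.03 when CuCl2 was added (-0.14 to 0.21). SCO2, on chromosome 22 at 50523568 to 50526439, ranged from 22.2 to 30.2 TPM, with log2 fold changes of 0.07 (-0.23 to 0.37), -0.04 (-0.35 to 0.26) and -0.11 (-0.42 to 0.19) in the 3 comparisons. SCO2 shares exonic sequence on the same strand with TYMP, as do ATP7A with PGK1 and AL356235.1, COX17 with POPDC2 and COMMD1 with RPSAP26, so the division of reads within each of these sets is uncertain. COMMD1, whose product supports the traffic and turnover of the copper pumps, lies on chromosome 2 at 61888724 to 62147247 and ranged from 32.7 to 44.1 TPM. Its estimates were 0.14 (-0.13 to 0.41), 0.10 (-0.17 to 0.37) and -0.05 (-0.32 to 0.22).

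None of the 9 members that reached the minimum mean passed limma at an adjusted p of 0.05 in any of the 3 comparisons. The share of all 13443 genes that passed was 1.96% for curcumin and 1.44% for curcumin with CuCl2 against palmitic acid alone, and 0% for curcumin with CuCl2 against curcumin. Higher and lower genes were 0.759% and 1.21% in the first, and 0.543% and 0.9% in the next, so a count of 0 among 9 is near the background in each. At an unadjusted p under 0.05 the members numbered 1, 0 and 0, against 14%, 13.5% and 1.6% of all genes. The groups overlapped for every member in every comparison. They did not overlap for 16.8% of all genes after curcumin (8.15% higher, 8.61% lower), 19% after curcumin with CuCl2 (8.67% higher, 10.3% lower) and 6.24% when CuCl2 was added (2.63% higher, 3.61% lower). Adjusted p ranged from 0.329 to 0.902 in the first comparison and from 0.530 to 0.971 in the second, and was 1 throughout the third. The median log2 fold change of the 9 was 0.21 after curcumin, with 8 positive, and 0.10 after curcumin with CuCl2, with 7 positive, against medians of -0.02 and -0.03 over all genes. These comparisons share the libraries with palmitic acid alone. With CuCl2 added to curcumin the median was -0.07, with 1 positive, against -0.01 over all genes. This last comparison shares the curcumin libraries with the first and those of curcumin with CuCl2 with the second. Of all genes, 46.3%, 43.8% and 45.6% were positive in the 3 comparisons.

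For each gene alone, the intervals limit a missed change only given the spread of these libraries, which may be technical. Over the 9 members tested, they reached from -0.27 to 0.75 for curcumin against palmitic acid alone, from -0.42 to 0.62 for curcumin with CuCl2 against palmitic acid alone, and from -0.63 to 0.37 for CuCl2 added to curcumin. A 2-fold change of any of them on the log2(TPM + 1) scale lies outside its 95% interval in all 3 comparisons, and with a pseudocount of 0.1 only that of SLC31A2 after curcumin, 1 of 27 intervals, reached it. Smaller changes lie within many of these intervals, so the data do not show that the levels were equal.

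**Figure D2:**
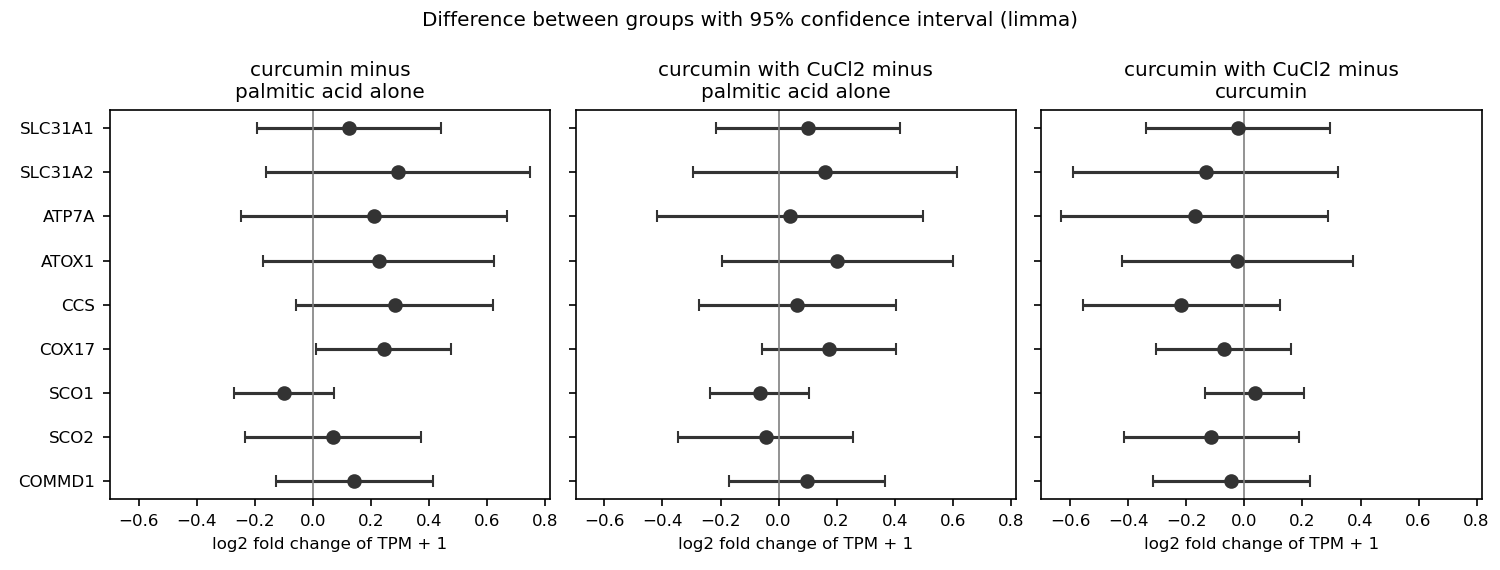
Log2 fold change of TPM + 1 (horizontal axis) of the 9 members tested in the 3 comparisons, with 95% confidence intervals from limma. All intervals but that of COX17 after curcumin include 0, and all lie between -0.63 and 0.75.

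The spread among replicates had a pattern that the members shared. With palmitic acid alone, replicate 3 was the lowest of its group for SLC31A1, SLC31A2, ATP7A, ATP7B and SCO1, and the highest for ATOX1, CCS, COX17, SCO2 and COMMD1. All 4 membrane transporters were thus at their lowest of that group in the library where every chaperone but SCO1, and COMMD1, were at their highest. Of the 5 members with over 5000 exonic bases over all annotated exons, 4 were lowest in replicate 3. ATOX1, at 5239 bases by that count, was highest. Of the 5 members with fewer bases, 4 were highest in replicate 3 and SLC31A2 was lowest. That library also had the lowest mitochondrial share and the lowest values of long genes given above, and the part of either in the members' values was not tested. Among libraries with curcumin, replicate 2 was the lowest for 6 members and had a mitochondrial share of 12.4%, against 10.4% and 10.9%. The shares of all genes that were lowest or highest in these libraries were not counted, so these counts do not set the members apart.

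**Figure D3:**
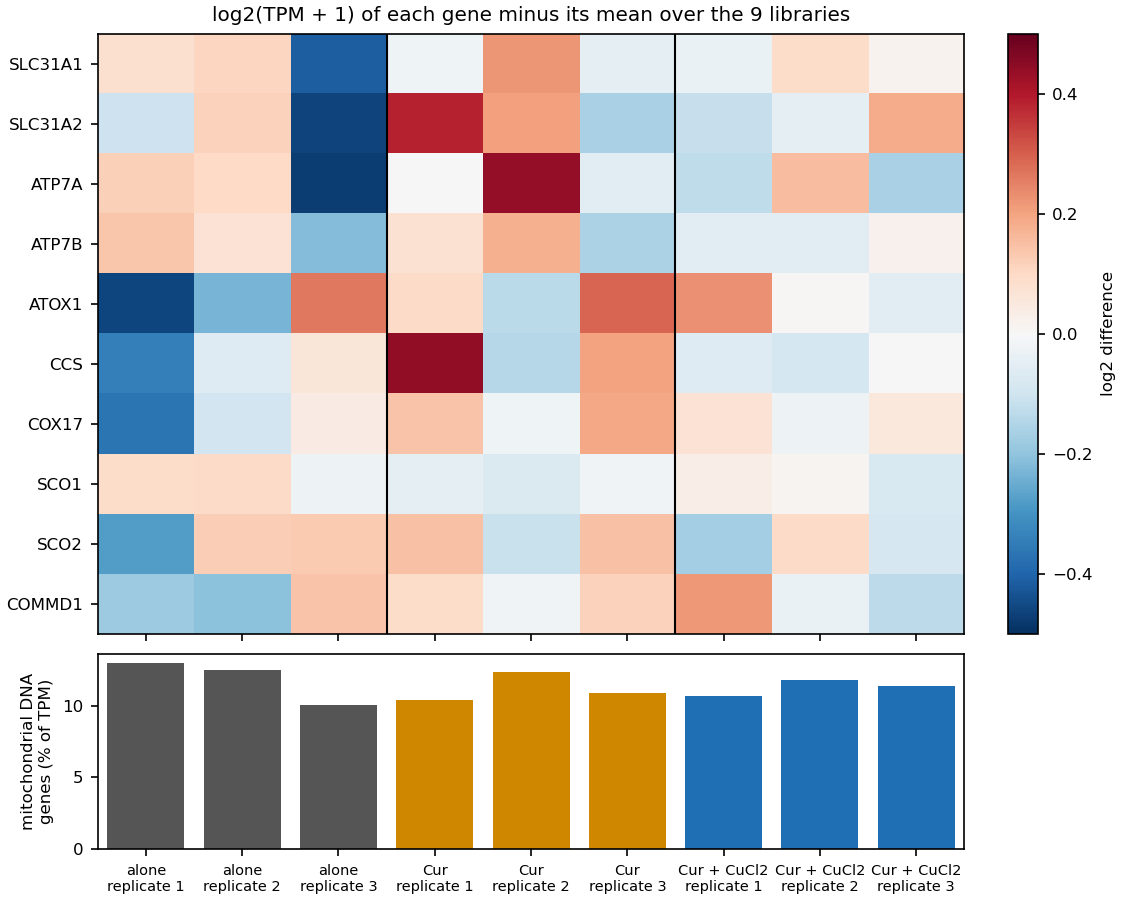
Upper panel, log2(TPM + 1) of each gene minus its mean over the 9 libraries (color scale), by library within group. Lower panel, share of TPM from genes of mitochondrial DNA, 10.1% in replicate 3 of palmitic acid alone, where the 4 transporter genes are below their means and ATOX1 is above its own.

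When each library's mitochondrial share entered the fit as a covariate, SLC31A1 passed for curcumin against palmitic acid alone. Its log2 fold change was then 0.23 (SE 0.06, 0.09 to 0.36, limma adjusted p = 0.0437), against 0.12 without the covariate. It was the only 1 of 9 members to pass, in a fit that called 11.2% of all genes. ATP7A had 0.35 (SE 0.10, adjusted p = 0.0635) and COX17 had 0.18 (SE 0.06, adjusted p = 0.0930) in that fit. After curcumin with CuCl2, SLC31A1 had 0.19 (SE 0.06, adjusted p = 0.0780) and no member passed, while 10.7% of all genes did. The share was measured on the same libraries, so it may carry treatment effects as well as library differences.

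The genes whose pattern over the 9 libraries lay nearest to that of SLC31A1 were sought by the root-mean-square difference of log2(TPM + 1) values centred on each gene's mean. Nearest to SLC31A1 were HINT3 at 0.0250, COG5 at 0.0289 and APOOL at 0.0298, where SLC31A1 itself departs from its mean by 0.166. HINT3 ranged from 12.1 to 19.0 TPM and COG5 from 8.30 to 13.8 TPM. These values describe the 9 libraries, which differ in mitochondrial share and in the values of long genes. The part of either in the likeness was not tested.

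Genes that work with the members were read from 6 further lists. Among copper-dependent enzymes, SOD1, the client of CCS, was the only 1 of 8 tested that passed, among estimates from -0.54 to 0.35 after curcumin, in a background of 0.759% of all genes higher after curcumin and 0.543% after curcumin with CuCl2. SOD1, which encodes the copper and zinc superoxide dismutase of the cytosol, stood at 375, 396 and 423 TPM with palmitic acid alone, 529, 486 and 503 TPM after curcumin, and 544, 507 and 542 TPM after curcumin and CuCl2. All 6 libraries with curcumin were above the 3 without. It rose by 0.35 on the log2 scale after curcumin (SE 0.06, 0.20 to 0.49, limma adjusted p = 0.0303) and by 0.42 after curcumin with CuCl2 (SE 0.06, 0.27 to 0.56, adjusted p = 0.0157). The first call held in 7 and the second in 13 of 20 other settings, with adjusted p from 0.00201 to 0.170 and from 0.000701 to 0.107, and estimates between 0.31 and 0.46. CuCl2 added to curcumin gave 0.07 (-0.07 to 0.21). SOD1 rose while the estimate of its chaperone CCS did not pass, and the difference between the 2 genes was not tested.

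The other enzymes of that list were either very high, low or not past the test. MT-CO1 and MT-CO2, the subunits of cytochrome c oxidase that hold copper, had means of 9643 and 19630 TPM, and neither passed in any comparison. Of the 19 enzymes listed, 11 were under 1 TPM. None of 15 genes for mitochondrial copper supply and cytochrome c oxidase assembly passed, with medians of 0.12, 0.05 and -0.06 in the 3 comparisons. In 5 of the 15 the libraries with curcumin were all above those with palmitic acid alone, against 8.15% of all genes, and so were they in 5 with curcumin and CuCl2, against 8.67%. Among them was SLC25A3, which encodes the mitochondrial carrier of phosphate and copper, which ranged from 711 to 796 TPM in cells with palmitic acid alone, below the 837 to 962 TPM after curcumin. CMC2, an assembly factor gene, was the next most abundant of that list at 344.5 TPM.

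None of 13 partners of COMMD1 passed, which are other COMMD genes and subunits of the complex through which they act on membrane traffic. Their medians were 0.13, 0.18 and -0.0016 in the 3 comparisons. Without overlap, 5 were higher after curcumin, against 8.15% of all genes, and 4 after curcumin with CuCl2, against 8.67%, and 1, COMMD7, was lower when CuCl2 was added, against 3.61%. COMMD9 was among both of the former, at 118 to 119 TPM with palmitic acid alone, 130 to 149 TPM after curcumin and 127 to 141 TPM after curcumin and CuCl2. COMMD4, the most abundant at 215 TPM, overlapped between groups. Of 5 metalloreductase and divalent metal transporter genes, 4 were tested and none passed, and the highest were SLC11A2 at 25.5 TPM and CYBRD1 at 12.5 TPM. Nor did any of 6 further regulators of copper levels pass, of which CLU at 439 TPM and CUTC at 44.8 TPM were the most abundant. CUTC stood at 39.9 to 42.0 TPM with palmitic acid alone, 45.9 to 52.3 TPM after curcumin and 41.8 to 44.2 TPM after curcumin and CuCl2. It was the 1 regulator higher without overlap after curcumin, against 8.15% of all genes. It was also the 1 lower without overlap when CuCl2 was added, against 3.61%.

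Some metallothionein genes passed for curcumin with CuCl2 against palmitic acid alone, and with the same settings none did for CuCl2 added to curcumin. Of 12 genes in the list of metallothioneins and MTF1, 7 were under 1 TPM and 5 were tested, of which MT1X, MT1E and MT1F were called higher after curcumin with CuCl2 against palmitic acid alone, where 0.543% of all genes were. MT1F reached the minimum mean only through the group where it was high, so its call is no support. It stood at 0.53, 0.30 and 0.26 TPM with palmitic acid alone, 0, 0.73 and 0 TPM after curcumin, and 5.71, 3.84 and 3.92 TPM after curcumin with CuCl2. MT2A, the most abundant of the list at 1268 TPM, did not pass. It stood at 800, 1057 and 1453 TPM with palmitic acid alone, 1075, 927 and 1116 TPM after curcumin, and 1754, 1589 and 1640 TPM after curcumin with CuCl2, without overlap. Its log2 fold change was 0.63 against palmitic acid alone (0.23 to 1.03, limma adjusted p = 0.129) and 0.68 against curcumin (0.28 to 1.08, adjusted p = 1). Against palmitic acid alone MT2A passed in 2 of 20 other settings, namely the mitochondrial share as covariate (0.52, adjusted p = 0.00855) and the fit that left out replicate 3 of palmitic acid alone (0.85, adjusted p = 0.0116). MT1X stood at 21.4, 33.2 and 42.7 TPM with palmitic acid alone, 27.0, 30.8 and 42.2 TPM after curcumin, and 131, 133 and 121 TPM after curcumin and CuCl2. Its log2 fold change was 2.003 (SE 0.23, limma adjusted p = 0.00511) against palmitic acid alone and 1.94 (SE 0.23, 1.42 to 2.45, adjusted p = 0.0692) against curcumin, where no gene of the 13443 passed. In that last comparison the interval of MT1X lay above those of all 9 members, whose highest bound was 0.37, though the differences between these genes were not tested. The call of MT1X against palmitic acid alone held in all 20 other settings, and that of MT1E in 16 of 20, the exceptions being the fits that left out replicate 1 of palmitic acid alone or any library of curcumin with CuCl2 (adjusted p up to 0.0802). With a pseudocount of 0.1 MT1F did not pass (adjusted p = 0.0739). For CuCl2 added to curcumin, MT1X passed in 3 of 20 other settings, MT1E in 2 of 20 and MT1F in 3 of 19. The lowest limma adjusted p in these settings was 0.0235 for MT1X, 0.0235 for MT1E and 0.00463 for MT1F. Metallothionein genes are near copies of each other, so how reads were shared among them is uncertain.

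**Figure D4:**
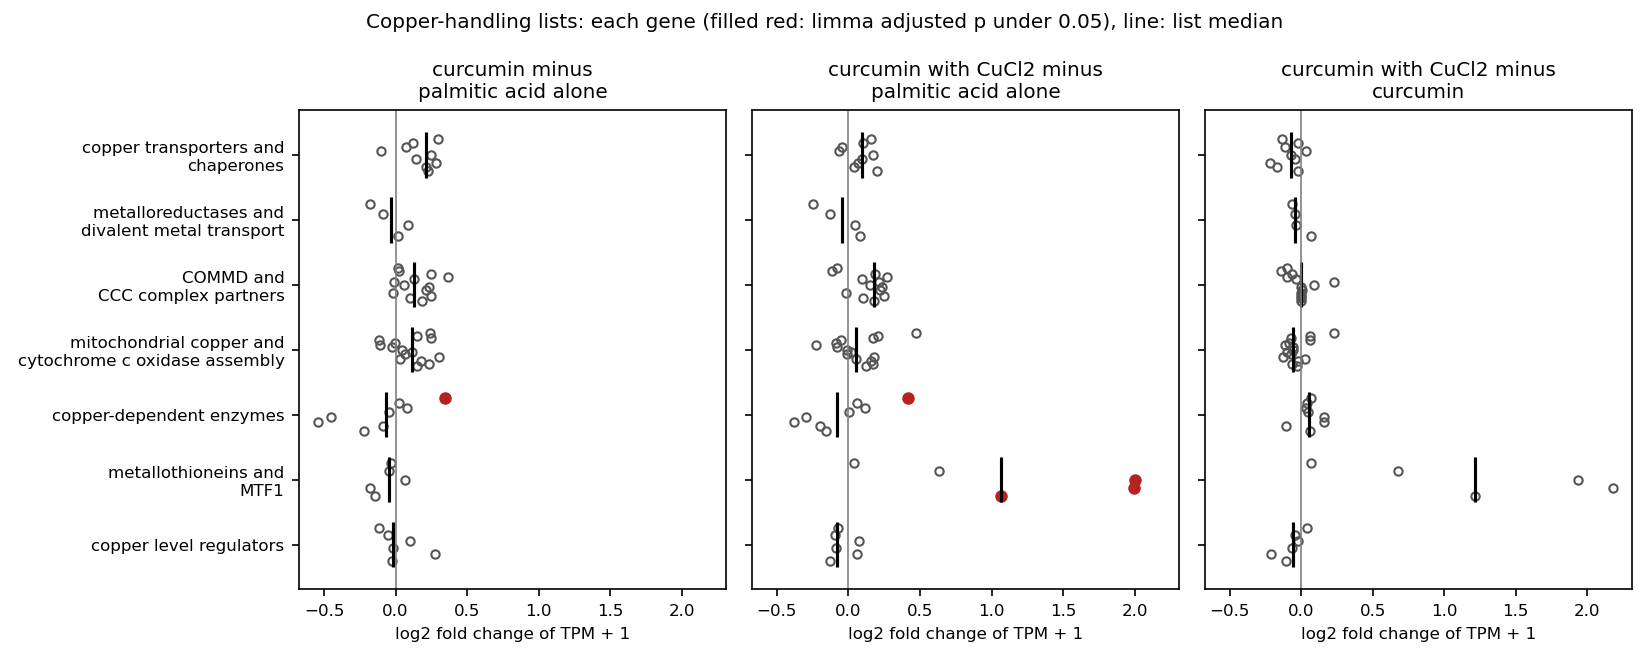
Log2 fold change of TPM + 1 (horizontal axis) of each tested gene of the 7 lists in the 3 comparisons, with filled red points for genes past limma's adjusted p of 0.05 and a line at each list's median. SOD1 is the filled point among the enzymes in the first 2 panels, 3 metallothionein genes are filled in the second, and no copper transporter or chaperone passes in any.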

How the data were processed

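The authors deposited 1 table of TPM values with 2 decimals, 62703 gene lines by 9 libraries, made from RNA libraries of a stranded kit for polyadenylated RNA, per the labels' protocols. The submitters' processing notes list HISAT2 2.1.0, RSEM 1.3.3 and the build GRCh38.p13 without their roles, and the annotation release is not given in the sources used here. TPM keeps no depth, so no count model or counting interval was used.

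Columns were assigned to samples by name. Values were taken as log2(TPM + 1). A minimum of 1 TPM on a gene's mean kept 13443 genes, which held 99.7% of the TPM. All 9 libraries entered 1 fit in limma 3.58.1 (R 4.3.3) with a mean per group, empirical Bayes with a variance trend, two-sided tests of 3 comparisons, and Benjamini-Hochberg adjustment over all genes kept at 0.05. Of the 10 members, ATP7B was under the minimum. Nothing in the labels ties replicates to separate cultures, so p-values measure only how these libraries vary, which may be technical. In these bulk samples, fewer cells of a type and less RNA per cell cannot be told apart. The fit was tested on simulated data.

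The members and lists were chosen with earlier results of these data known. All members are named, and from each other list up to 4 genes past the test per comparison and the 2 of highest mean. COMMD7 falls outside this rule and was chosen after its values were seen. Coordinates are from GENCODE 29, and promoters from RefSeq (GRCh38.p14). Genes of like pattern were sought for SLC31A1 and ATP7A, and those for ATP7A are not reported here. There were 20 alternative settings. Python 3.11.15 with matplotlib 3.10.9 drew the figures.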

Additional observations from a re-analysis of the deposited data

How the results depend on the processing

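With another setting, no member passed limma in any comparison except SLC31A1, the 1 member that passed for curcumin against palmitic acid alone with the mitochondrial share as covariate. Over all genes, the 264 that passed for curcumin against palmitic acid alone became 104 with no filter, 130 with no variance trend, 1505 with the covariate, 35 with only the 2 groups fitted, and 54 to 619 when each library was left out in turn. The 194 for curcumin with CuCl2 against palmitic acid alone became 114, 1436 and 65 with no filter, the covariate and only the 2 groups, and 46 to 527 with a library left out. In both, the fewest came without a library of the treated group and the most without replicate 3 of palmitic acid alone. The covariate moved the share called higher from 38.6% to 57.3% and from 37.6% to 53%. For CuCl2 added to curcumin, 0 became 1 with a pseudocount of 5, 3 with no filter, 2 with a minimum of 0.5 TPM, 3 with only the 2 groups and 0 to 4 with a library left out. The cause of these shifts was not tested.

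With a library left out in turn, some log2 fold changes near 0 changed sign. For curcumin against palmitic acid alone, SLC31A1 ranged from -0.044 to 0.22, SCO2 from -0.067 to 0.16, MT1X from -0.20 to 0.29, MT2A from -0.26 to 0.17 and MT1E from -0.29 to 0.025. For curcumin with CuCl2 against palmitic acid alone, SLC31A1 ranged from -0.067 to 0.19, ATP7A from -0.16 to 0.14, CCS from -0.048 to 0.15, SCO2 from -0.18 to 0.026 and COMMD1 from -0.0014 to 0.21. For CuCl2 added to curcumin, SLC31A1 ranged from -0.073 to 0.062, ATOX1 from -0.13 to 0.079 and COMMD1 from -0.14 to 0.028. Without a change of sign, estimates for curcumin against palmitic acid alone ranged from 0.017 to 0.31 for ATP7A, 0.14 to 0.45 for SLC31A2, 0.069 to 0.43 for ATOX1, 0.15 to 0.44 for CCS, 0.13 to 0.34 for COX17 and 0.082 to 0.25 for COMMD1. With the covariate, CCS became -0.013 for curcumin with CuCl2 and MT1X -0.041 for curcumin, both against palmitic acid alone.

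Deviations from the group means were correlated between same-numbered libraries. The correlations ran from -0.27 to 0.07 for replicate 1, 0.04 to 0.22 for replicate 2 and -0.05 to 0.25 for replicate 3. Of the 9 libraries, 3 correlated best with their own number, so the numbers were not taken as pairs. A replicate block gave 177, 147 and 0 genes in the 3 comparisons and 0 members. Depth is unknown, which limits the precision that can be stated for low genes such as ATP7B.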
